A study of Mus musculus with 12 samples.

Results

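Activated CD8 T cells in which Tmed10 had been edited with CRISPR were compared with activated cells that carried a control guide. The comparison rests on 4 of the 12 libraries of the series, 2 from the knockout and 2 from the control, and covers the 13167 genes that passed a filter on low counts out of 46603 gene identifiers in the count table. The genes were not selected by their response. In this population 2583 genes differed between knockout and control, 1427 higher and 1156 lower. Most measured members of the COPI coat, of the translocon and chaperones of the endoplasmic reticulum (ER) and of a list of ATF4 regulators and effectors were higher, and most measured genes of S, G2 and M phase were lower.

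The cells were OT-I/Cas9 CD8 T cells, which are mouse T cells with one transgenic receptor for an ovalbumin peptide and a Cas9 nuclease. According to the study's methods they were isolated from spleen, preactivated on antibodies to CD3 and CD28, transduced with a retroviral guide vector and selected in puromycin, then expanded in medium with IL-2, IL-7 and IL-15. The control group is named Ctrl2 and the knockout group sgTmed in the labels, where the latter's genotype is given as Tmed10 KO, and both received water, the vehicle of the compound AGN192403 used elsewhere in the series. Both were cultured for 24 h on a plate coated with antibody to CD3 at 2.5 µg/mL. The resting counterparts of each group were used below as a second measurement of the knockout effect. They carried the same names in the labels, Ctrl2 and sgTmed, and had the same vehicle and 24 h of culture without the antibody. The labels do not say which Tmed10 guides were used. A knockout library is a guide-transduced and drug-selected population, not a clone, and reads from edited alleles still count towards Tmed10. Nothing in the labels says that replicates came from separate cultures or mice, so the p-values measure the spread between these libraries, which may be technical.

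TMED10 belongs to the p24 family of transmembrane cargo receptors, which cycle between the ER and the Golgi apparatus. COPII coats form the vesicles that leave the ER, COPI coats form those that return from the Golgi, and p24 proteins take part in both steps and in sorting glycosylphosphatidylinositol (GPI)-anchored proteins. Cells that accumulate unfolded protein in the ER activate the transcription factors ATF6 and XBP1, whose targets are chaperones and degradation factors, and the kinase PERK, which through ATF4 raises genes of amino acid supply. T cells restimulated through CD3 produce cytokines, surface receptors and cytotoxic granule proteins at high rate and therefore load this pathway heavily.

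Values below are read counts scaled to a common library size, written CPM, after adjustment by the trimmed mean of M values (TMM). Libraries 1 and 2 of a group are given in that order, and the control pair stands before the knockout pair in each contrast written with the word against. Differences are log2 fold changes of knockout over control ± standard error (SE), n = 2 libraries per group, and a gene is called at a Benjamini-Hochberg adjusted p under 0.05 over all 13167 genes in edgeR's quasi-likelihood test. The control libraries held 12156158 and 12228283 counts and the knockout libraries 16481840 and 9526283, so that low transcripts were measured less precisely in the second knockout library. The summed CPM of 10 CD8 T cell markers, here and below in this paragraph scaled by library totals only, was 4169 to 4365 in the control and 4456 to 4495 in the knockout libraries. Other lineages were low, with B cell markers at 31.51 to 34.43 CPM and 31.43 to 34.33 CPM, and NK cell markers at 1.974 to 3.271 CPM and 2.73 to 3.464 CPM, in the same order. Sums were lower in the knockout for stromal and endothelial (27.89 to 30.19 CPM against 25.72 to 26.82 CPM) and erythroid and platelet markers (3.044 to 3.598 CPM against 1.68 to 2.488 CPM). Of 3 B cell genes tested 1 was called lower (-1.13), though not by DESeq2, another count test. Of 2 stromal genes 1 was called higher (1.73). Sums were higher in the knockout for CD4 T cell markers (53.81 to 59.23 CPM against 68.86 to 71.7 CPM), mast cell markers (43.02 to 46.07 CPM against 55.15 to 59.31 CPM) and myeloid markers (229.9 to 242.9 CPM against 253.5 to 255.9 CPM), and the members called higher in them were Zbtb7b (0.43 ± 0.075), Kit (0.36 ± 0.062), Cd74 (0.74 ± 0.069) and Cst3 (0.17 ± 0.056). Batf3, of the myeloid list, was lower (-0.22 ± 0.054). Listed at 0 in all 4 libraries were Foxp3, of regulatory T cells, the mast cell genes Mcpt4, Fcer1a and Tpsb2, and the myeloid genes Lyz2, Fcgr1, S100a8, S100a9 and Siglech. The part of these markers in the results was not tested. In such bulk samples, fewer cells of a type and less RNA per cell cannot be told apart.

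Of all genes tested, 19.6% were called, 10.8% higher and 8.78% lower, and these shares are the background for each count of list members below. Most differences were small. The median absolute log2 fold change of the called genes was 0.301, or 1.23-fold, and 85 of the rises and 109 of the falls were at least 2-fold. The number called was 1538 without control library 1 and 1686 without knockout library 1. The count of genes at least 2-fold lower was 38 without control library 1, 62 without knockout library 1 and 71 without knockout library 2, and 157 without control library 2. Those of the 109 that are very long or nuclear RNAs are described after the protein-coding lists, since the 2 control libraries differed from each other in them.

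**Figure D1:**
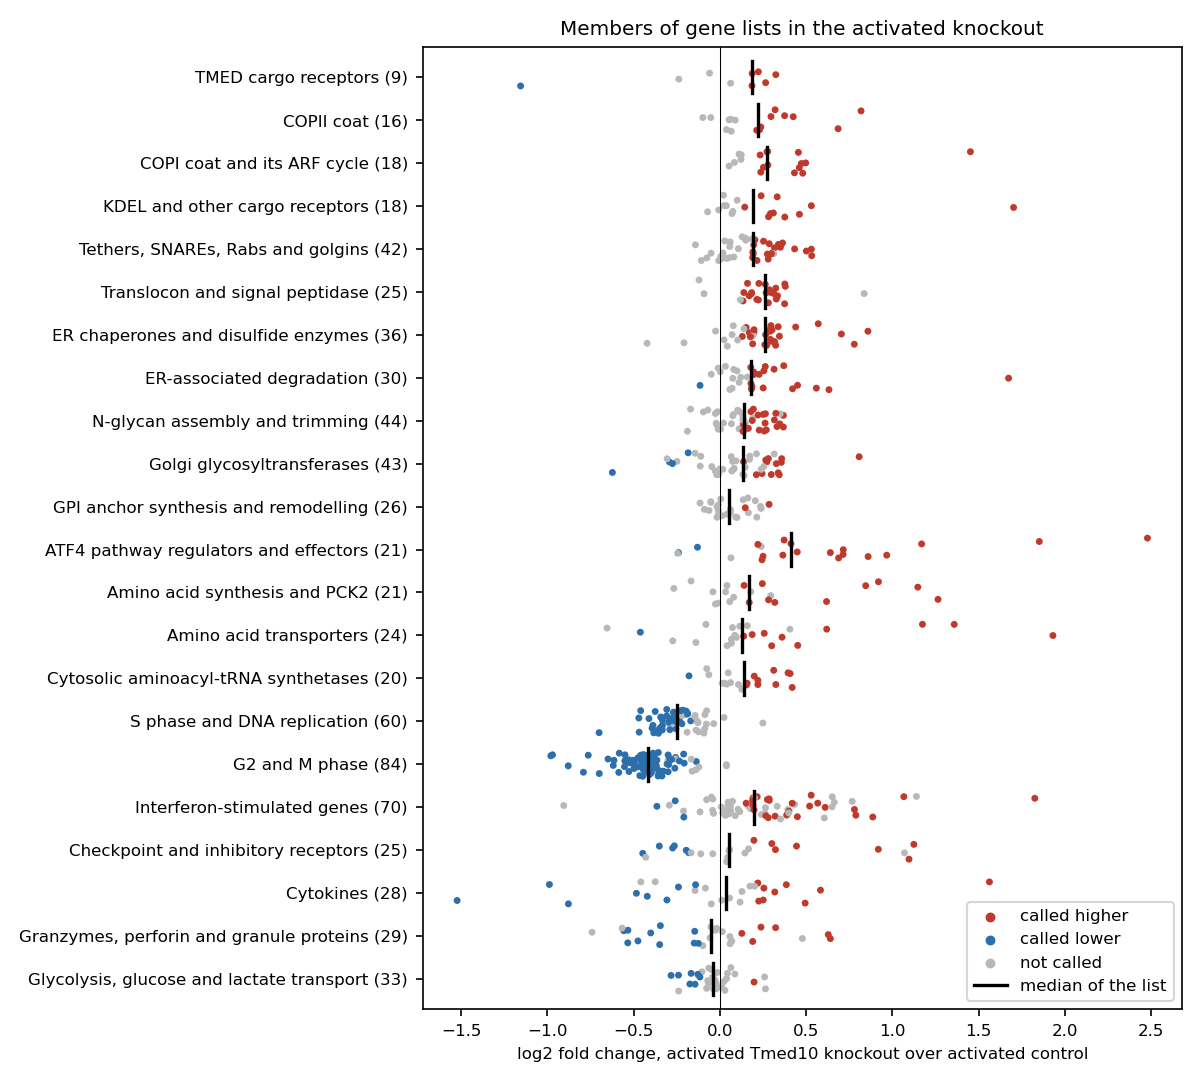
Log2 fold change of knockout over control in activated cells for the members of 22 gene lists, one point a gene (the number of genes tested follows each list's name). Red points were called higher, blue points called lower and grey points not called, and the black bar is the median of the list, which was 0.27 for the COPI coat, 0.41 for the ATF4 pathway and -0.42 for G2 and M phase.

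Tmed10 transcripts were reduced and other p24 family members were higher. Tmed10 (ENSMUSG00000021248, chromosome 12, 85340614 to 85374847, here and below in GRCm38 with the span of the GENCODE annotation) had 128 and 125 CPM in the control libraries and 55.9 and 58.3 CPM in the knockout libraries, which is 44.9% of the control level. Both knockout libraries lay far under both controls (log2 fold change -1.15 ± 0.052, adjusted p = 6.85e-14). Of the 9 family members tested, 5 were higher, namely Tmed2, Tmed3, Tmed5, Tmed7 and Tmed9, and Tmed10 alone was lower. Tmed3, a gamma subfamily member, had 64.6 and 70.6 CPM in the control libraries and 85.8 and 82.9 CPM in the knockout libraries (log2 fold change 0.32 ± 0.057, adjusted p = 0.000148). Tmed5, of the same subfamily, had 219 and 206 against 258 and 253 CPM (0.27 ± 0.042, adjusted p = 4.3e-05). Tmed9, an alpha subfamily member, had 220 and 236 against 277 and 254 CPM (0.22 ± 0.047, adjusted p = 0.00115, call lost without knockout library 1). Tmed7 had 193 and 185 against 210 and 221 CPM (0.19 ± 0.046, adjusted p = 0.00484, call lost without control library 2 or knockout library 2). Tmed2, the beta subfamily member that assembles with TMED10, had 44.3 and 45.1 against 52.9 and 48 CPM (0.19 ± 0.064, adjusted p = 0.0399, call lost without knockout library 1 or either control library and in 6 of the other fits) and the largest p of the 5. The count of family members called higher was 3 without control library 2. Tmed1 (-0.24 ± 0.19), Tmed4 (0.06 ± 0.072) and Tmed8 (-0.06 ± 0.069) were not called.

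Both vesicle coats were raised, and no member of either was lower. In the COPII list, which holds the coat, its GTPases and its assembly factors, 9 of 16 genes were higher with a median of 0.22. Sec24d, one of the cargo-binding isoforms of the inner coat, had 65.9 and 74.2 CPM in the control libraries and 119 and 129 CPM in the knockout libraries (log2 fold change 0.82 ± 0.056, adjusted p = 1.32e-10). Its partner Sec23a, the GTPase activator of the coat, had 66.8 and 68.2 against 110 and 106 CPM (0.68 ± 0.051, adjusted p = 5.18e-10). The outer cage subunits rose less, with 262 and 270 against 353 and 362 CPM (0.42 ± 0.04) for Sec31a and 187 and 198 against 257 and 242 CPM (0.37 ± 0.045) for Sec13. Sar1a, the GTPase that starts coat assembly, had 179 and 189 against 234 and 226 CPM (0.32 ± 0.05), whereas Sec24b, at 77.6 and 74.8 against 71.5 and 76.3 CPM (-0.05 ± 0.061), was not called. Both knockout libraries exceeded both controls in each of the called COPII genes given here.

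In the COPI list 13 of 18 genes were higher with a median of 0.27. Copa and Copb2, subunits of the outer coat, had 522 and 529 against 720 and 726 CPM (0.46 ± 0.037) and 276 and 283 against 382 and 408 CPM (0.50 ± 0.042). Arf4, a small GTPase of the early Golgi, had 175 and 173 against 229 and 249 CPM (0.45 ± 0.049). The GTPase activators Arfgap1 (0.47 ± 0.054) and Arfgap3 (0.48 ± 0.074) rose about as much, but Arfgap2, at 94.6 and 89.7 against 98.9 and 96 CPM (0.08 ± 0.057), was not called. Copz2, the rarer zeta subunit, had 0.916 and 1.34 against 3.03 and 3.23 CPM (1.45 ± 0.3, adjusted p = 0.000833), the largest fold of the called members, at a level of few counts.

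Among 18 KDEL receptors and other cargo receptors 10 were higher and none lower. Kdelr3, one of the receptors that bring escaped ER proteins back, had 3.75 and 4.7 CPM in the control libraries and 13 and 15 CPM in the knockout libraries (log2 fold change 1.70 ± 0.15, adjusted p = 7.5e-09). Kdelr2, the more abundant paralogue in counts, had 112 and 107 against 154 and 147 CPM (0.46 ± 0.05). Surf4, a receptor for soluble cargo, and Yipf5, a membrane protein of the cis-Golgi, had 350 and 356 against 450 and 466 CPM (0.38 ± 0.043) and 56.1 and 59.2 against 81.4 and 85.8 CPM (0.53 ± 0.057). The lectin Lman1 and its partner Mcfd2, which carry glycoproteins out of the ER, had 214 and 214 against 266 and 264 CPM (0.31 ± 0.04) and 45.5 and 45.7 against 56.6 and 58.7 CPM (0.33 ± 0.066).

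The tethers, SNAREs, Rabs and golgins had 21 of 42 genes higher and none lower (median 0.19). The ER-to-Golgi SNAREs Stx5a and Bet1 had 52.2 and 51.9 against 75.2 and 75.1 CPM (0.53 ± 0.055) and 23.7 and 25.3 against 36.4 and 34 CPM (0.53 ± 0.084). The golgins Golga2 and Golga5, which hold vesicles at the Golgi rim, had 110 and 104 against 140 and 151 CPM (0.43 ± 0.049) and 45.6 and 48.2 against 67.8 and 64.2 CPM (0.50 ± 0.061).

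The ER protein folding machinery was raised by small amounts. In the translocon list, which covers the channel, the signal recognition particle and the signal peptidase, 21 of 25 genes were higher (median 0.26), and 13 without control library 1. Sec61b and Sec61a1, subunits of the channel, had 62.7 and 64.7 against 82.1 and 83.8 CPM (0.38 ± 0.054) and 506 and 520 against 654 and 638 CPM (0.33 ± 0.042), and Ssr3, of the translocon-associated complex, had 488 and 484 against 632 and 628 CPM (0.38 ± 0.039). Tram1, which helps nascent chains into the membrane, had 154 and 170 against 213 and 206 CPM (0.37 ± 0.048). Among ER chaperones and disulfide enzymes 26 of 36 were higher and none lower (median 0.26). Hspa5, encoding the Hsp70 chaperone BiP (ENSMUSG00000026864, chromosome 2, 34771970 to 34777547), had 1879 and 1848 CPM in the control libraries and 2540 and 2513 CPM in the knockout libraries (log2 fold change 0.44 ± 0.034, adjusted p = 9.91e-10). Its cochaperone Dnajb9 had 10.7 and 11.9 against 19.2 and 19.7 CPM (0.78 ± 0.11, adjusted p = 6.6e-06), and Pdia5, a disulfide isomerase, had 18.7 and 20.2 against 35.5 and 34.9 CPM (0.86 ± 0.097, adjusted p = 4.26e-07). The abundant isomerases P4hb and Pdia3 had 1125 and 1174 against 1423 and 1436 CPM (0.31 ± 0.037) and 973 and 1001 against 1191 and 1270 CPM (0.32 ± 0.042), and the Hsp90 paralogue Hsp90b1 had 2149 and 2123 against 2365 and 2444 CPM (0.17 ± 0.036). Ero1lb, an oxidase that recharges the isomerases, had 10.5 and 11 against 18.2 and 16.5 CPM (0.70 ± 0.11). As sums over the chaperone list, the levels were 13750 and 13980 CPM in the control libraries and 16220 and 16530 CPM in the knockout libraries, and the groups did not overlap.

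ER-associated degradation, which pulls misfolded proteins back into the cytosol, had 17 of 30 genes higher (9 with DESeq2). Edem1 was the member that fell, by a small amount (-0.11). None of the 27 members under 5000 exon bases was called lower, and with an offset for exon length described below 1 member was. Sel1l and Syvn1, the adaptor and the ubiquitin ligase of the main retrotranslocation complex, had 150 and 149 against 218 and 224 CPM (0.56 ± 0.043) and 92.9 and 90.6 against 121 and 115 CPM (0.37 ± 0.05). Herpud1, a stress-inducible organiser of that complex, had 82.9 and 79.6 against 125 and 127 CPM (0.63 ± 0.048). Derl1 had 103 and 101 against 139 and 139 CPM (0.45 ± 0.049), and Derl3, the inducible derlin, had 1.42 and 1.43 against 4.58 and 4.52 CPM (1.67 ± 0.27, adjusted p = 4.68e-05) at a very low level. The sensors and their factors had 10 of 18 genes higher (5 without control library 1) and Ern1 lower. Atf4 itself had 389 and 402 against 472 and 465 CPM (0.24 ± 0.042, adjusted p = 0.000106), and Xbp1 and Atf6 had 175 and 172 against 212 and 203 CPM (0.26 ± 0.043) and 66.5 and 70.4 against 80.5 and 81.5 CPM (0.24 ± 0.056, call lost without control library 1). Creb3, a Golgi-activated relative of ATF6, rose more (24.3 and 25.8 against 34.4 and 38.2 CPM, 0.52 ± 0.081). Ern1, which encodes the sensor IRE1 alpha, had 43.5 and 38 against 35.7 and 33.7 CPM (-0.22 ± 0.071, adjusted p = 0.0272, call lost without control library 1 or either knockout library and in 4 of the other fits).

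Glycosylation and anchor synthesis were described as separate lists. In N-glycan assembly and trimming 19 of 44 genes were higher (11 without control library 1) and none lower, among them Ostc, a subunit of the oligosaccharyltransferase (152 and 156 against 197 and 200 CPM, 0.37 ± 0.048), and Gmppb and Gmppa, which make and regulate the supply of GDP-mannose (76.3 and 78.5 against 98.5 and 98.3 CPM, 0.35 ± 0.053 and 88.6 and 81.1 against 108 and 104 CPM, 0.32 ± 0.051). In the Golgi 13 of 43 genes were higher (6 with DESeq2) and 4 were lower, the latter being St8sia4, St3gal1, Mgat5 and Gcnt1. Of the 34 members under 5000 exon bases 1 was called lower, and with the offset for exon length described below 5 members were. The sialyltransferase St3gal6 had 6.58 and 6.54 against 10.8 and 12.7 CPM (0.81 ± 0.14) and the polysialyltransferase St8sia4, a long transcript, 25.8 and 23.5 against 15.4 and 17 CPM (-0.62 ± 0.093, call lost in 1 of 13 alternative fits). Galnt3, which starts O-glycans, had 72.6 and 74.8 against 92.8 and 96.9 CPM (0.36 ± 0.054). GPI anchor synthesis, whose products are cargo of the p24 proteins, had 2 of 26 genes higher and none lower (median 0.05), Pigc (18.6 and 18 against 22.9 and 21.4 CPM, 0.28 ± 0.098, call lost without either control library or either knockout library and in 4 of the other fits) and Pigt (91.6 and 91.7 against 102 and 101 CPM, 0.15 ± 0.049, call lost without either control library or either knockout library and in 5 of the other fits), a share under the background of genes called higher. Of 18 GPI-anchored surface proteins Nt5e, Gpc1 and Cd24a were higher and Ly6c2 was lower. Nt5e, the ectonucleotidase CD73, had 5.25 and 4.53 against 11.1 and 9.47 CPM (1.10 ± 0.15, adjusted p = 7.71e-06), and the glypican Gpc1 20.2 and 20.1 against 33.6 and 31.5 CPM (0.70 ± 0.076, adjusted p = 2.6e-07). Thy1, the most abundant of these anchored proteins by counts, was at 1763 and 1955 against 1864 and 1886 CPM (0.01 ± 0.045). Among proteins secreted without a signal peptide Il1a, the alarmin interleukin 1 alpha, had 9.41 and 9.65 against 30.1 and 31.5 CPM (1.68 ± 0.1, adjusted p = 1.32e-10), Anxa1 had 13 and 13.1 against 17.6 and 19.7 CPM (0.49 ± 0.1), and Tgm2, a transglutaminase, had 88.1 and 91.5 against 68.1 and 66.4 CPM (-0.41 ± 0.05).

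Several of the raised ER genes carry the ER stress element, the site bound by ATF6 with NF-Y, close to their start. The 250 bases upstream of the RefSeq start of Hspa5, Hsp90b1 and Derl3 are printed 5′ to 3′ on the strand of the gene. They are shown because they hold that element, spelled as CCAAT and CCACG with 9 free bases between them. Both strands were searched, and each match is in capitals. The sequences are those of RefSeq on GRCm38.p6, at chr2:34771840-34772089 (plus strand) for Hspa5, chr10:86705445-86705694 (minus strand) for Hsp90b1 and chr10:75893148-75893397 (plus strand) for Derl3. Hspa5 has 1 match, which begins 65 bases before the RefSeq start. The GENCODE span of Hspa5 given above begins within this window, so the match lies inside that span. Hsp90b1 has 2, at 212 and 107 bases, of which the second lies on the opposite strand. Derl3 has 1 on the opposite strand at 156 bases.
Hspa5: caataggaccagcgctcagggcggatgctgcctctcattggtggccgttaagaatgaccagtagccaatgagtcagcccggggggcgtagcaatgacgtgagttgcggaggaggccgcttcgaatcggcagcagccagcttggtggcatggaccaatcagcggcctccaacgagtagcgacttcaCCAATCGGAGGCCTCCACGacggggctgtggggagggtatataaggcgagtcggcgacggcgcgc
Hsp90b1: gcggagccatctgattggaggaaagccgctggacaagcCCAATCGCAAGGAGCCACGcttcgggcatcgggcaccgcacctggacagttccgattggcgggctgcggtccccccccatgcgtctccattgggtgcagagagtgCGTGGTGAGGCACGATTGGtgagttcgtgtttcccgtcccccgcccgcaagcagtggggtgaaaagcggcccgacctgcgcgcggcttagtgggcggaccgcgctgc
Derl3: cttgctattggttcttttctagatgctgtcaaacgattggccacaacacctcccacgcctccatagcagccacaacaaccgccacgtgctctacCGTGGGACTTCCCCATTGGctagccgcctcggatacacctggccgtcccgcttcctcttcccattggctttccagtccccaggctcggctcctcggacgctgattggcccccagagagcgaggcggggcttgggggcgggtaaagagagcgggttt
In windows from 250 bases before to 50 bases after the start, the element was found in 0.137% of 27025 gene promoters, in 16 of the 9502 tested genes that had a window (0.168%), in 7 of 30 ER chaperone and disulfide genes (23.3%) and in 2 of 22 degradation genes. It was found in none of the 16 COPII and 16 COPI windows. These are descriptions of letters in a window and not of binding. No match printed here or below overlaps a match of another motif named in the text.

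Transcripts of the ATF4 pathway and of amino acid supply included the largest rises among genes of at least 10 CPM. Of 21 regulators and effectors 16 were higher with a median of 0.41, and Atf3 and Ddit4 were lower. Avil, an actin-binding protein of the gelsolin family, had 3.75 and 4.36 CPM in the control libraries and 20.5 and 25.9 CPM in the knockout libraries (log2 fold change 2.48 ± 0.16, adjusted p = 6.41e-11). Nupr1, a small stress-induced chromatin protein, had 3.33 and 5.79 against 15.8 and 17.4 CPM (1.85 ± 0.17, adjusted p = 1.24e-08). The pseudokinase Trib3, which is induced by ATF4 and feeds back on it, had 33.6 and 32.7 against 68.8 and 59.2 CPM (0.97 ± 0.068, adjusted p = 2.19e-10). The related factor Atf5 had 14.3 and 15.6 against 34 and 33.1 CPM (1.17 ± 0.09), and Sqstm1, an autophagy receptor, 160 and 171 against 267 and 277 CPM (0.71 ± 0.044). Vldlr, a lipoprotein receptor, had 11.7 and 11.3 against 20.8 and 21.1 CPM (0.86 ± 0.11). Atf3, a stress-induced repressor, fell (150 and 163 against 146 and 138 CPM, -0.13 ± 0.046, call lost without control library 2 or knockout library 2 and in 2 of the other fits).

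Enzymes that make amino acids rose in 10 of 21 cases and none fell. DESeq2 called 7 of them higher and 0 lower. With the offset for exon length described below, 9 were higher and 2 lower. Pck2, the mitochondrial phosphoenolpyruvate carboxykinase (ENSMUSG00000040618, chromosome 14, 55540266 to 55551242), had 50.5 and 51.7 CPM in the control libraries and 119 and 127 CPM in the knockout libraries (log2 fold change 1.26 ± 0.052, adjusted p = 1.33e-14). Pycr1 and Aldh18a1, of proline synthesis, had 21.8 and 20.6 against 46.3 and 48 CPM (1.15 ± 0.087) and 218 and 226 against 284 and 267 CPM (0.32 ± 0.044). Asns, asparagine synthetase, had 225 and 223 against 340 and 349 CPM (0.62 ± 0.045), Gpt2, an alanine aminotransferase, 29.4 and 28.8 against 54.6 and 55.6 CPM (0.92 ± 0.069), and Cth, which makes cysteine, 41.1 and 39.9 against 76.4 and 67.6 CPM (0.84 ± 0.067). Among serine and one-carbon enzymes Aldh1l2, the mitochondrial folate dehydrogenase (ENSMUSG00000020256, chromosome 10, 83487450 to 83534140), had 3.67 and 3.69 CPM in the control libraries and 30.5 and 34.7 CPM in the knockout libraries (log2 fold change 3.13 ± 0.13, adjusted p = 1.33e-14), or 8.74-fold, the first among those rises. Of the 21 serine and one-carbon genes 6 were higher and 3 lower, with a median of -0.0. Psph, Phgdh and Mthfd2 rose less than Aldh1l2 (0.51 ± 0.069, 0.23 ± 0.049 and 0.27 ± 0.043). The folate enzymes of thymidylate synthesis went the other way, with Tyms at 60.2 and 58 against 41.8 and 44.1 CPM (-0.47 ± 0.06) and Shmt1 at 112 and 111 against 93.6 and 91.8 CPM (-0.26 ± 0.057).

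Amino acid transporters had 10 of 24 genes higher, and Slc1a2 fell. Slc7a11, the cystine importer, had 3.67 and 3.52 CPM in the control libraries and 14 and 13.3 CPM in the knockout libraries (log2 fold change 1.93 ± 0.15, adjusted p = 1.33e-09). Slc7a3, for cationic amino acids, had 21.2 and 21.8 against 56.6 and 52.8 CPM (1.36 ± 0.08), Slc6a9, for glycine, 16.3 and 16.9 against 38.4 and 36.1 CPM (1.17 ± 0.082), and Slc1a4, for neutral amino acids, 39.4 and 43.9 against 63 and 65.4 CPM (0.62 ± 0.069). Slc7a5, the light chain of the large neutral transporter, had 642 and 656 against 878 and 898 CPM (0.45 ± 0.038), which was among the 12 largest rises in CPM. Slc7a1 and Slc7a6 were not called (0.07 ± 0.039 and 0.04 ± 0.045). The glutamate transporter Slc1a2 had 13.5 and 12.3 against 9.46 and 9.26 CPM (-0.46 ± 0.13, call lost without control library 1 or either knockout library and in 3 of the other fits). Cytosolic aminoacyl-tRNA synthetases had 10 of 20 genes higher and Vars lower. Sars, Nars, Wars and Gars rose by 0.42, 0.41, 0.40 and 0.32 (each SE under 0.05).

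For this response the upstream sequences of Pck2 and Slc7a11 are shown, which hold the ATF4 element, a C/EBP-ATF composite site. It was spelled TGATGNAA, searched on both strands, and its matches are in capitals. The windows are the 250 bases before the RefSeq start on GRCm38.p6, chr14:55540016-55540265 on the plus strand for Pck2 and chr3:50443614-50443863 on the minus strand for Slc7a11. Pck2 has 1 match at 103 bases before the start, on the opposite strand, and Slc7a11 has a facing pair at 66 and 47 bases.
Pck2: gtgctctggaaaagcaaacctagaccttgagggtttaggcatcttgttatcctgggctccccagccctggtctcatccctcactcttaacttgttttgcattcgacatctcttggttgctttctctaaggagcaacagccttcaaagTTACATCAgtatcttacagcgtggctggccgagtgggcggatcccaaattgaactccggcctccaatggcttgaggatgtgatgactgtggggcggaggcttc
Slc7a11: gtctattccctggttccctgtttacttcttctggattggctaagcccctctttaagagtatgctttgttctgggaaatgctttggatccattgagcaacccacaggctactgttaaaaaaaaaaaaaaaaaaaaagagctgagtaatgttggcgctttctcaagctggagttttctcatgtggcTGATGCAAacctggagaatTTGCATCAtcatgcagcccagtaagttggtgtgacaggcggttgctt
The element occurred in 4.51% of all 27025 windows and in 2.75% of the windows of tested genes. It was found in 7 of 19 genes of the ATF4 list (36.8%) and in 3 of 18 amino acid transporters. None of the 17 serine and one-carbon enzymes that had a window held it. Aldh1l2 had no window and was not searched.

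Antioxidant and cell death genes moved in smaller shares. Of 30 NRF2 targets and glutathione genes 10 were higher (7 with DESeq2) and Abcc1 was lower (-0.12, not called with DESeq2). Nqo1 and Srxn1, typical NRF2 targets, had 1.92 and 3.19 against 6.74 and 5.49 CPM (1.29 ± 0.22) and 47.2 and 49.2 against 64.3 and 70.4 CPM (0.47 ± 0.062), and Hmox1, heme oxygenase, had 29.2 and 32.7 against 39.2 and 40.4 CPM (0.36 ± 0.081, call lost without control library 1). Cytosolic heat shock genes had 2 of 23 called, Hspa8 (1813 and 1873 against 1928 and 2070 CPM, 0.12 ± 0.039, call lost without knockout library 2 or either control library and in 6 of the other fits) and Chordc1 (162 and 169 against 184 and 183 CPM, 0.15 ± 0.045, call lost without control library 1 or either knockout library and in 1 of the other fits), a share under the background. The p53 list had 8 of 29 genes higher (5 without control library 2), such as Plk2 (97.6 and 104 against 144 and 151 CPM, 0.54 ± 0.046), Sesn2 (104 and 105 against 135 and 134 CPM, 0.37 ± 0.046) and Trp53inp1 (85.5 and 89 against 112 and 107 CPM, 0.33 ± 0.049), and Gtse1 and Zmat3 were lower. In the BCL2 family 6 of 30 genes were higher (2 without knockout library 1) and Birc5 lower. The proapoptotic Bbc3 and Bcl2l11, encoding PUMA and BIM, had 9.41 and 9.57 against 14.9 and 14 CPM (0.62 ± 0.14, call lost without knockout library 1) and 27 and 26.2 against 36.5 and 36.4 CPM (0.45 ± 0.066), and the antiapoptotic Bcl2l2 and Bcl2 had 37.6 and 35.8 against 48 and 44.8 CPM (0.35 ± 0.067) and 369 and 369 against 406 and 402 CPM (0.13 ± 0.037, call lost without either control library or either knockout library).

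**Figure D2:**
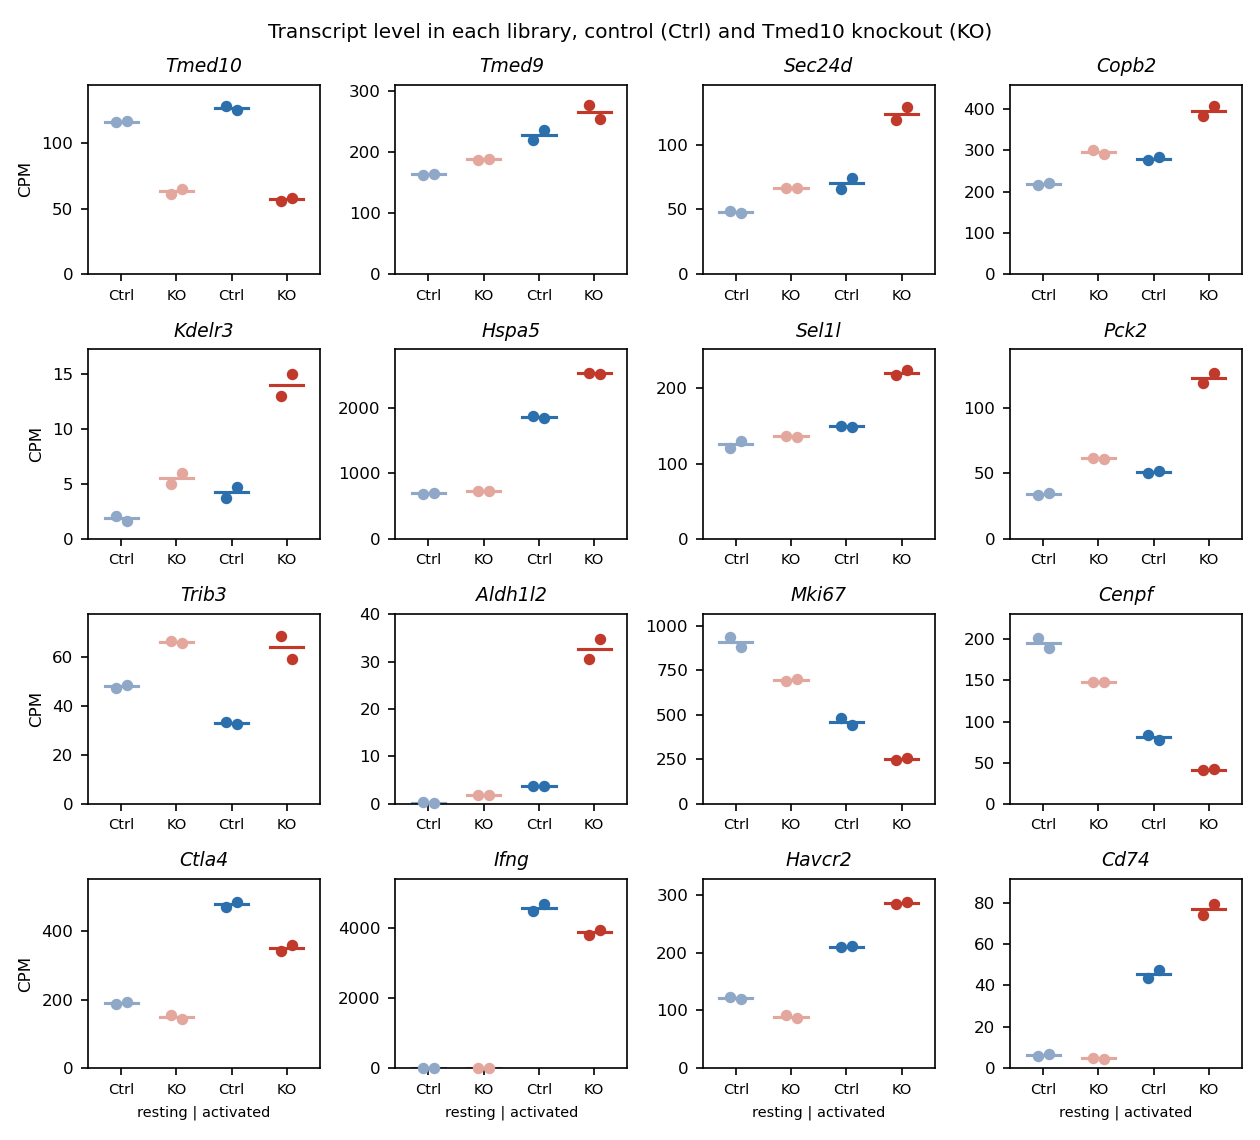
Transcript level in CPM (each y axis starts at 0) of 16 genes in the 4 activated and the 4 resting libraries with vehicle, one point a library and a bar at the mean of 2. In the activated pair on the right of each panel the knockout points lie apart from the control points, as for Pck2 (50.5 and 51.7 against 119 and 127), Mki67 (479 and 444 against 246 and 257) and Ctla4 (471 and 485 against 342 and 360).

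Transcripts of the dividing cell were lower. In G2 and M phase 76 of 84 genes fell and none rose, with a median of -0.42, a lowest value of -0.98 and a smallest called fall of -0.14. Summed over the list, the level was 6001 and 5949 CPM in the control libraries and 4402 and 4484 CPM in the knockout libraries. Mki67, the proliferation marker Ki-67 (ENSMUSG00000031004, chromosome 7, 135689784 to 135716361), had 479 and 444 CPM in the control libraries and 246 and 257 CPM in the knockout libraries (log2 fold change -0.88 ± 0.058, adjusted p = 8.21e-11). The spindle proteins Aspm and Cenpe had 54.8 and 54.9 against 26.5 and 29.9 CPM (-0.98 ± 0.073) and 103 and 100 against 61.7 and 63.9 CPM (-0.70 ± 0.053), the kinetochore protein Cenpf 83.8 and 77.6 against 40.6 and 42.1 CPM (-0.97 ± 0.061), and Cit, the citron kinase of cytokinesis, 42.1 and 42.4 against 23.6 and 25.6 CPM (-0.79 ± 0.098). Cdc25c, the phosphatase that admits cells to mitosis, had 8.41 and 11.2 against 5.01 and 7 CPM (-0.76 ± 0.18, call lost without control library 2 or knockout library 1). The other 8 members were not called. Several of the largest falls are in long genes. Among the 71 members with under 5000 exon bases, 63 fell, with the same median of -0.42.

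Genes of S phase had 42 of 60 lower and none higher (median -0.25), or 31 of 48 among those under 5000 bases. The fitted change was negative in 58 of the 60, but DESeq2 called only 31 of them lower. The replicative polymerases Pole and Pola1 had 110 and 104 against 74.3 and 81.9 CPM (-0.47 ± 0.052) and 90.1 and 83.9 against 65.6 and 67.3 CPM (-0.39 ± 0.054), and the checkpoint adaptor Clspn had 61.3 and 62.7 against 44.5 and 46.1 CPM (-0.46 ± 0.062). Brca2, of recombination repair, had 42.7 and 38.4 against 23.4 and 27.3 CPM (-0.70 ± 0.1), and the repair partner Brca1 50.1 and 51.5 against 37.2 and 39.7 CPM (-0.41 ± 0.064). Usp1, a deubiquitinase of repair, was not called (99 and 95.6 against 95.1 and 94.6 CPM, -0.04 ± 0.05). Regulators of G1 split into 8 lower (4 without knockout library 1) and 4 higher of 29. Mycn had 49.5 and 51.6 against 33.3 and 32.2 CPM (-0.62 ± 0.067), Rbl2, a pocket protein, 272 and 269 against 192 and 200 CPM (-0.47 ± 0.042) and E2f2 24.3 and 30.2 against 20.9 and 19.8 CPM (-0.41 ± 0.11, call lost without control library 2 or either knockout library). Higher were Cdkn2b, the inhibitor p15 (16.4 and 17.6 against 23.6 and 25.2 CPM, 0.51 ± 0.085), Mxd4, a MYC antagonist (34.2 and 35.3 against 51.9 and 48.4 CPM, 0.54 ± 0.064), Max and Cdkn1b.

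The window of Mki67 is shown as an example of the cell cycle homology region, spelled TTTGAA, through which the DREAM and MuvB complexes act on late cell cycle genes. It is the 250 bases at chr7:135716380-135716629 on the minus strand (RefSeq, GRCm38.p6), with 2 matches in capitals at 116 and 98 bases before the start.
Mki67: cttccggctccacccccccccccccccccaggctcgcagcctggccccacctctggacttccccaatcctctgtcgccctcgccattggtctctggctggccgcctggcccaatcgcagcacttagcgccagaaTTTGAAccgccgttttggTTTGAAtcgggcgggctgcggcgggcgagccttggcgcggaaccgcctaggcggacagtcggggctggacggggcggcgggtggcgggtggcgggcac
So short a motif is common. It was found on either strand in 20.2% of all windows and 14.3% of those of tested genes, against 44 of 71 G2 and M phase genes (62.0%) and 7 of 46 S phase genes (15.2%). The E2F site, spelled TTTGGCGC or TTTCCCGC, was found in 1.8% of all windows, 3.57% of those of tested genes, 15 of 46 S phase genes (32.6%) and 6 of 71 G2 and M phase genes.

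The checkpoint receptors, the subject of the study, moved in both directions. Of 25 inhibitory receptors and ligands 7 were higher (4 without knockout library 1) and 6 lower (3 without control library 2). Pdcd1, encoding PD-1 (ENSMUSG00000026285, chromosome 1, 94038305 to 94052553), had 42 and 45.7 CPM in the control libraries and 36.6 and 36.4 CPM in the knockout libraries (log2 fold change -0.26 ± 0.079, adjusted p = 0.0184, call lost without control library 2 or either knockout library and in 1 of the other fits). Both knockout libraries lay below both controls, by an amount that not every fit called. Ctla4, encoding the competitor of CD28 for its ligands (ENSMUSG00000026011, chromosome 1, 60887000 to 60915832), had 471 and 485 CPM in the control libraries and 342 and 360 CPM in the knockout libraries (log2 fold change -0.45 ± 0.042, adjusted p = 2.09e-08), a call that held in all 13 alternative fits. Tigit, a receptor for nectins, fell as well (146 and 156 against 120 and 116 CPM, -0.35 ± 0.054), and Entpd1, the ectonucleotidase CD39, had 65.6 and 71.5 against 59.7 and 60.2 CPM (-0.19 ± 0.056, call lost without control library 2 or knockout library 1 and in 2 of the other fits). In the other direction Havcr2, encoding TIM-3, had 209 and 211 CPM in the control libraries and 284 and 288 CPM in the knockout libraries (log2 fold change 0.44 ± 0.04, adjusted p = 1.38e-08). Ceacam1, an adhesion molecule with an inhibitory tail, had 2.33 and 3.02 against 5.32 and 6.67 CPM (1.12 ± 0.21), and Cd200r1 2.58 and 1.93 against 4.51 and 3.87 CPM (0.92 ± 0.23, call lost without control library 2 or knockout library 1), both at low levels. Il10ra, the interleukin 10 receptor chain, was not called (121 and 123 against 120 and 117 CPM, -0.04 ± 0.05).

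Among 30 costimulatory and activation receptors and ligands 6 were higher and 5 lower. The tumour necrosis factor ligands Tnfsf11, Tnfsf8 and Tnfsf4, encoding RANKL, CD30L and OX40L, had 128 and 135 against 176 and 187 CPM (0.46 ± 0.048), 91.4 and 89 against 125 and 119 CPM (0.44 ± 0.048) and 73.1 and 76.6 against 102 and 100 CPM (0.43 ± 0.05). Tnfrsf8, encoding CD30, fell (724 and 723 against 488 and 509 CPM, -0.54 ± 0.041), as did the adhesion receptor Cd2 (137 and 138 against 98.6 and 107 CPM, -0.43 ± 0.05) and the alpha chain of the interleukin 2 receptor, Il2ra (5588 and 5743 against 4957 and 4985 CPM, -0.19 ± 0.032). Tnfrsf4 and Tnfsf10 were the other two that fell. Cd69, an early activation marker, had 115 and 109 against 143 and 157 CPM (0.41 ± 0.054). Tnfrsf9, encoding 4-1BB, had 2404 and 2516 against 2582 and 2596 CPM (0.07 ± 0.037, adjusted p = 0.184) and was not called. In the T cell receptor list 9 of 38 genes were higher (6 with DESeq2), among them the adaptor Lcp2 (320 and 319 against 403 and 406 CPM, 0.34 ± 0.038), the kinase Fyn (112 and 119 against 139 and 139 CPM, 0.27 ± 0.049) and Nfatc1 (101 and 105 against 125 and 121 CPM, 0.26 ± 0.052). Plcg1, Cbl, Cblb and Nfatc2 were lower. None of the 25 members under 5000 exon bases was called lower, and with the offset for exon length described below 4 members were. Among interleukin receptors and their signalling 9 rose (2 without control library 1) and 8 fell (4 without control library 1). Socs3, the feedback inhibitor downstream of STAT3, had 74.9 and 66.7 against 44.3 and 43.7 CPM (-0.68 ± 0.072), Stat3 1097 and 1112 against 960 and 946 CPM (-0.21 ± 0.036) and the survival receptor Il7r 177 and 169 against 135 and 135 CPM (-0.36 ± 0.043).

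Cytokine transcripts moved in both directions. Ifng, encoding interferon gamma (ENSMUSG00000055170, chromosome 10, 118441046 to 118445892), had 4457 and 4664 CPM in the control libraries and 3783 and 3939 CPM in the knockout libraries (log2 fold change -0.24 ± 0.04, adjusted p = 7.95e-05), in which both knockout libraries lay under the controls. Il2, the T cell growth factor, had 15.7 and 16 against 20.6 and 21 CPM (0.39 ± 0.1, adjusted p = 0.0095, call lost without control library 1 or knockout library 1 and in 1 of the other fits), and Tnf 101 and 109 against 114 and 116 CPM (0.13 ± 0.053, adjusted p = 0.0933), which was not called. Of 28 cytokines 9 were higher and 8 lower. The largest falls were in the interleukin 10 family and interleukin 21, with Il10 at 314 and 318 CPM in the control libraries and 172 and 173 CPM in the knockout libraries (log2 fold change -0.88 ± 0.043, adjusted p = 2.67e-13), Il24 at 933 and 930 against 466 and 474 CPM (-0.99 ± 0.042, adjusted p = 2.3e-14) and Il21 at 8.91 and 8.31 against 2.91 and 3.12 CPM (-1.52 ± 0.2, adjusted p = 7.55e-06). Csf2, encoding GM-CSF, rose (72.4 and 82.9 against 116 and 117 CPM, 0.58 ± 0.055), and so did Il23a, the p19 subunit of interleukin 23 (50.2 and 51.9 against 101 and 112 CPM, 1.05 ± 0.069), Areg, an epidermal growth factor ligand (3.25 and 3.1 against 8.72 and 10.4 CPM, 1.56 ± 0.19), and Il16 (44.7 and 47.4 against 64 and 66 CPM, 0.49 ± 0.057). Among 10 chemokines 5 rose (3 without control library 1) and Ccl9 fell (95.5 and 99.7 against 84.2 and 83.7 CPM, -0.22 ± 0.056, call lost without control library 2 and in 1 of the other fits). Cxcl10, a ligand of CXCR3, had 3.42 and 3.36 against 11.9 and 12.2 CPM (1.83 ± 0.17, adjusted p = 3.16e-08), Ccl1 80.1 and 77.9 against 121 and 127 CPM (0.65 ± 0.053) and Ccl5 116 and 136 against 157 and 165 CPM (0.35 ± 0.061), and the abundant Ccl3 and Ccl4 had 1168 and 1254 against 1308 and 1430 CPM (0.18 ± 0.048, call lost without control library 1 or knockout library 2) and 445 and 478 against 526 and 517 CPM (0.18 ± 0.048, call lost without control library 1 or knockout library 1).

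In trafficking receptors 4 of 30 were higher (1 without control library 1) and 7 lower. S1pr1, which guides exit from lymphoid tissue, fell (23.7 and 24 against 15.7 and 19.5 CPM, -0.47 ± 0.097, call lost without knockout library 1), as did Selp (27.8 and 29.5 against 12 and 11.2 CPM, -1.29 ± 0.11) and the integrin Itgav (336 and 316 against 261 and 246 CPM, -0.36 ± 0.048). Cxcr6, a chemokine receptor of tissue-resident cells, had 89.8 and 86.5 against 110 and 105 CPM (0.30 ± 0.051, adjusted p = 0.000144), and Cxcr4 was not called (23.9 and 22.1 against 21 and 20.8 CPM, -0.14 ± 0.084). Cytotoxic granule genes fell in 10 of 29 cases and rose in 6 (3 without control library 1). Gzmb, the most abundant protease transcript, had 19550 and 20460 against 17570 and 18520 CPM (-0.15 ± 0.034, adjusted p = 0.00267, call lost without knockout library 1), and Gzma 1622 and 1667 against 1270 and 1319 CPM (-0.35 ± 0.04, adjusted p = 5.83e-07). The mouse cluster of related granzymes fell together, with Gzmd at 500 and 528 against 367 and 373 CPM (-0.47 ± 0.041), Gzme at 301 and 297 against 207 and 207 CPM (-0.53 ± 0.045), Gzmf at 58.9 and 70.3 against 43.4 and 44.7 CPM (-0.56 ± 0.076) and Gzmg at 79.9 and 80.3 against 56.5 and 53.6 CPM (-0.53 ± 0.057), although reads of these near-identical genes may be divided uncertainly. Prf1, encoding perforin, was at 927 and 952 against 934 and 965 CPM (0.01 ± 0.041) and not called, and the protease inhibitor Serpina3g rose (43.2 and 40.8 against 67.3 and 61.6 CPM, 0.63 ± 0.064). Klrd1, encoding CD94, and Klri2 were the 2 of 9 killer lectin-like receptors that were higher (63.1 and 59.5 against 80.5 and 82.8 CPM, 0.41 ± 0.053 and 1.58 and 0.839 against 2.35 and 3.77 CPM, 1.26 ± 0.35, call lost without control library 2 or knockout library 2).

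Transcription factors of activation showed no common direction. Of 36 immediate early and AP-1 genes 5 were higher and 8 lower (5 without control library 2). Egr1 had 58.7 and 66.9 against 105 and 104 CPM (0.74 ± 0.056, adjusted p = 6.11e-10) and the signalling inhibitor Spry1 15.8 and 16.6 against 22.1 and 22.7 CPM (0.46 ± 0.11, call lost in 1 of 13 alternative fits), while Nr4a2 (108 and 111 against 83.4 and 87.2 CPM, -0.37 ± 0.051), Batf (50.5 and 53.9 against 42 and 40.9 CPM, -0.33 ± 0.067) and Ier3 (82.1 and 87 against 65.2 and 59.4 CPM, -0.43 ± 0.061) fell. Among effector, exhaustion and memory factors 10 of 36 were higher (6 without control library 2). Tcf7, encoding the memory factor TCF1, had 28.8 and 30.6 against 48.7 and 48.2 CPM (0.71 ± 0.071), Klf3 2.83 and 2.52 against 5.01 and 5.38 CPM (0.94 ± 0.19) and Zbtb7b, encoding ThPOK, 35.8 and 32.6 against 44 and 49.5 CPM (0.43 ± 0.075). Tox was called higher, from 0.0833 and 0.168 to 1.05 and 1.18 CPM, a level of few counts. Satb1, Myb, Zeb1 and Runx3 were lower. In the NF-kB list 2 of 22 genes were higher, Nfkbiz and Ikbke (0 with DESeq2), a share under the background, and 4 were lower (3 with DESeq2). Tnip3, a feedback inhibitor, had 39.6 and 42.6 against 17.1 and 16.8 CPM (-1.28 ± 0.097, adjusted p = 6.73e-10), Traf1 1019 and 1003 against 912 and 867 CPM (-0.18 ± 0.037) and Nfkbiz 41.2 and 40.6 against 48.3 and 49.2 CPM (0.25 ± 0.065, call lost without control library 2 or knockout library 1 and in 1 of the other fits).

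Interferon-stimulated transcripts were higher in 25 of 70 genes, and Stat2, Gbp8 and Samhd1 were lower (median 0.20). The ubiquitin-like Isg15 had 6.83 and 7.8 against 13.2 and 14 CPM (0.89 ± 0.13, adjusted p = 1.71e-05), the GTPase Iigp1 10.1 and 12.5 against 24.2 and 22.8 CPM (1.07 ± 0.1, adjusted p = 4.85e-08), Xaf1 8.33 and 8.22 against 14.3 and 14.3 CPM (0.79 ± 0.12) and the growth regulator Slfn1 21.9 and 23.7 against 34.4 and 35.4 CPM (0.61 ± 0.075). Their response element, spelled as GAAA on both sides of 2 free bases, was found in 3.99% of all windows, 3.81% of those of tested genes and 30 of 50 windows of this list (60%). MHC and antigen presentation genes rose in 10 of 29 cases (6 with DESeq2) and Nlrc5 fell (-0.18). With the offset for exon length described below no member was called lower. B2m, the light chain of class I molecules, had 1482 and 1549 against 1702 and 1847 CPM (0.23 ± 0.043), the peptide transporter Tap1 218 and 221 against 246 and 252 CPM (0.18 ± 0.04) and the nonclassical H2-M3 18.4 and 18.1 against 28 and 26.5 CPM (0.59 ± 0.09). Cd74, the class II invariant chain, had 43.8 and 47.7 against 74.1 and 79.5 CPM (0.74 ± 0.069, adjusted p = 2.03e-08), and is itself one of the myeloid markers, and H2-Ab1, of class II itself, was at 25.8 and 24.5 against 24.4 and 23 CPM (-0.08 ± 0.095).

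Where genes of lipid and sugar metabolism were called, most were lower. Of 42 cholesterol and fatty acid genes 13 fell (7 without control library 1) and Nr1h2 rose. Abca1, a cholesterol efflux transporter at a low level, had 3.75 and 4.11 against 1.48 and 1.94 CPM (-1.25 ± 0.24). Scd1, a desaturase, had 278 and 286 against 219 and 209 CPM (-0.40 ± 0.04), Fasn, the fatty acid synthase, 1255 and 1241 against 1021 and 1033 CPM (-0.28 ± 0.038, call lost in 1 of 13 alternative fits), and Acat2 and Nsdhl, of sterol synthesis, 88.1 and 82.4 against 71.1 and 71.5 CPM (-0.26 ± 0.055) and 87.5 and 84.2 against 74.2 and 72.1 CPM (-0.23 ± 0.053, call lost without control library 1). Glycolysis genes fell in 7 of 33 cases (4 without control library 2), with Ldha, lactate dehydrogenase, at 2858 and 3040 against 2656 and 2574 CPM (-0.17 ± 0.038), Eno1 at 1274 and 1260 against 1185 and 1107 CPM (-0.14 ± 0.039, call lost without control library 1 or knockout library 2 and in 1 of the other fits) and Pfkfb3 at 130 and 132 against 115 and 119 CPM (-0.17 ± 0.046, call lost without control library 2 or knockout library 1 and in 2 of the other fits). The one member that rose was the oxidase Ero1l (804 and 811 against 935 and 917 CPM, 0.20 ± 0.037), which also counts among the ER enzymes.

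Some of the largest changes lay outside the lists. Among rises these were Tmem154, a membrane protein (14.4 and 12.8 against 33.6 and 33.1 CPM, 1.30 ± 0.083), Angptl6, a secreted angiopoietin-like factor (2.67 and 4.11 against 11.1 and 11.4 CPM, 1.72 ± 0.17), Fam114a1 (4.25 and 4.61 against 11.9 and 12.5 CPM, 1.45 ± 0.16) and Hid1, a peripheral Golgi protein (10.7 and 10.1 against 23.6 and 25 CPM, 1.21 ± 0.099). The MAGE family gene Maged1 had 4 and 3.36 against 11.9 and 12.2 CPM (1.71 ± 0.17) and Glce, a heparan sulfate epimerase of the Golgi, 8.25 and 7.97 against 17.1 and 16.8 CPM (1.07 ± 0.11). Chchd10, of the mitochondrial intermembrane space, had 19.8 and 22.9 against 45.6 and 42.6 CPM (1.05 ± 0.082), and Pink1, the mitophagy kinase, 6.42 and 7.05 against 14.2 and 12.2 CPM (0.99 ± 0.12). The pseudokinase Trib2, a relative of Trib3, had 3.92 and 5.12 against 10.3 and 10.3 CPM (1.19 ± 0.16). Among falls of ordinary length were Timp1, an inhibitor of metalloproteases (26.7 and 22.9 against 8.41 and 8.93 CPM, -1.53 ± 0.12), Filip1 (40.2 and 41.4 against 20.9 and 18.3 CPM, -1.04 ± 0.11), the borate transporter family gene Slc4a11 (50.5 and 48.2 against 27.7 and 23.8 CPM, -0.92 ± 0.077) and the RNA-editing enzyme Adarb1 (44.3 and 38.5 against 20.4 and 22 CPM, -0.98 ± 0.091). The 12 largest rises in CPM itself were those of Eef1a1, Eef2, Hspa5, mt-Co1, Rpl4, mt-Nd1, Pabpc1, P4hb, Hsp90b1, B2m, Pdia3 and Slc7a5. The translation factors and the cytochrome oxidase RNA among them had Eef1a1 at 6146 and 6483 against 7554 and 7750 CPM (0.28 ± 0.036), Eef2 at 6083 and 6287 against 7006 and 6953 CPM (0.17 ± 0.032) and mt-Co1 at 3783 and 4106 against 4527 and 4193 CPM (0.14 ± 0.045, call lost without control library 1 or knockout library 1 and in 2 of the other fits).

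The median difference declined with exon length. Among 9909 genes with at least 5 CPM on average, the median log2 fold change was 0.04 for up to 2000 exon bases and 0.04 for 2000 to 5000 bases, then -0.01, -0.11 and -0.36 in the bins from 5000, 8000 and 12000 bases. Of the 126 genes over 12000 bases 77 were called lower and 8 higher. The control libraries were not equal in them, since the median log2 ratio of control library 1 over 2 was 0.11 in the longest bin, and the same bin had a median of -0.23 in the resting knockout. Macf1, a cytoskeletal linker, had 716 and 618 against 286 and 327 CPM (-1.13 ± 0.13), Mdn1, of ribosome assembly, 530 and 463 against 213 and 253 CPM (-1.10 ± 0.12), and the histone methyltransferases Kmt2a and Kmt2d 344 and 295 against 145 and 163 CPM (-1.06 ± 0.13) and 387 and 334 against 173 and 199 CPM (-0.96 ± 0.14). The nuclear RNA Malat1 had 1631 and 989 against 437 and 400 CPM (-1.64 ± 0.25), with control library 1 above control library 2. Kcnq1ot1, a very long antisense RNA, had 33.6 and 16 against 3.4 and 3.66 CPM (-2.82 ± 0.6), with a like gap, and the muscle gene Neb had 239 and 189 against 71.9 and 87 CPM (-1.45 ± 0.18). An offset for exon length, added after the data were seen, brought the median of the longest bin to 0.01 and left Macf1 at -0.47, Mdn1 at -0.62 and Malat1 at -1.60. With it -1.19, 0.41 and -0.71 were found for Tmed10, Hspa5 and Mki67, and 77 G2 and M phase genes were lower. The methods of the study state that libraries were made from total RNA with an RNA integrity number above 8. Integrity values of the single libraries were not used here, and the part of RNA quality in these falls was not tested.

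**Figure D3:**
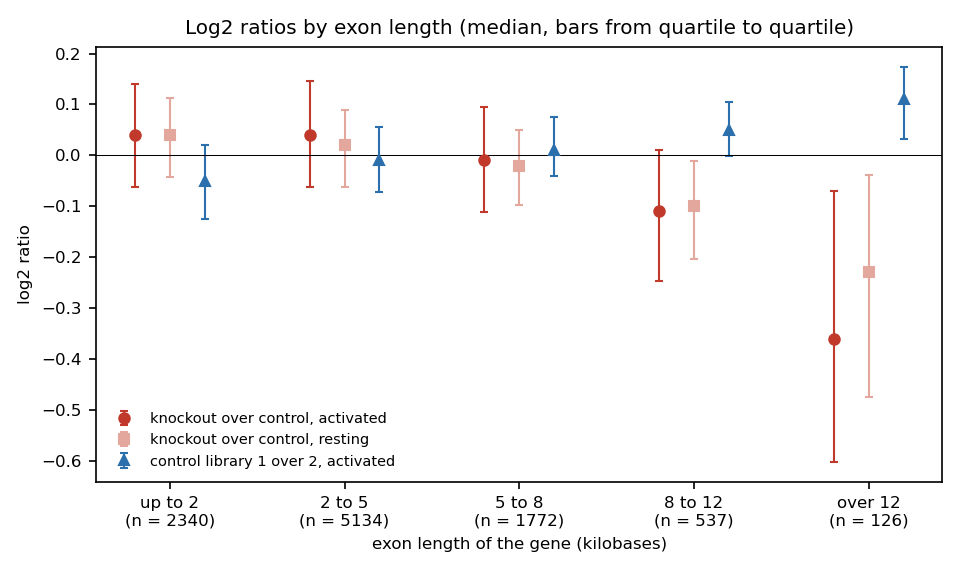
Median log2 ratio (points) with the range from the lower to the upper quartile (bars) by exon length of the gene in kilobases, for knockout over control in activated cells, knockout over control in resting cells, and control library 1 over control library 2. In genes over 12 kilobases the activated median was -0.36 and the resting median -0.23, and control library 1 exceeded control library 2 by 0.11.

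The knockout effect was compared with that in resting cells, which were measured in 4 other libraries. At rest 979 genes were called (7.44% of those tested), 370 higher (2.81%) and 609 lower (4.63%). Of the 1427 genes higher in activated cells 216 were also higher at rest, which is 15.1% of the former and 58.4% of the latter, and of the 1156 lower genes 303 were lower at rest (26.2% and 49.8%). The difference between the effects, tested as an interaction in the same fit, was called for 653 genes (4.96%), positive in 404 (3.07%) and negative in 249 (1.89%). It was called for 402 genes without activated control library 1, 374 without activated knockout library 1, and 318 and 397 without resting knockout library 1 or 2.

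Part of the coat genes were also higher at rest. COPI genes had a median of 0.27 in activated and 0.23 in resting cells, with 13 and 11 genes higher, and no interaction was called. Copb2 was 216 and 221 CPM in resting control and 300 and 290 CPM in resting knockout libraries (0.43 ± 0.043). In the COPII list 9 genes were higher in activated and 5 of 16 in resting cells, with medians of 0.22 and 0.10, and Sec24d alone had a called interaction. Of the amino acid genes Pck2, Asns and Pycr1 were also higher at rest (0.85, 0.46 and 0.81), as was Aldh1l2, at a resting level of 0.3 and 0.0757 CPM in the control and 1.73 and 1.86 CPM in the knockout libraries.

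Folding and degradation genes had lower medians at rest. The chaperone list had a median of 0.05 at rest, where Dnajc3, Pdia5, P4hb, Cnpy2 and Txndc5 were higher and Ero1l lower, and 7 of 36 interactions were called, all positive. Hspa5 was 688 and 698 CPM in resting control and 731 and 729 CPM in resting knockout libraries (0.08 ± 0.035, adjusted p = 0.23), and its interaction was 0.36 ± 0.049 (adjusted p = 5.06e-05). In the degradation list 5 of 30 interactions were called (Derl1, Derl2, Herpud1, Sel1l and Syvn1), and in the ATF4 list 10 of 21, all positive.

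Cell cycle genes fell less at rest. G2 and M phase genes had a median of -0.06 at rest with 7 lower, and 60 of 84 interactions were called, all negative. In S phase the corresponding numbers were a median of -0.01 and 20 of 60. Mki67 was 935 and 879 CPM in resting control and 689 and 700 CPM in resting knockout libraries (-0.39 ± 0.055), with an interaction of -0.49 ± 0.08 (adjusted p = 0.000371). Interferon-stimulated genes had a resting median of -0.00 (1 higher, Irgm2, and 4 lower, Gbp8, Ifi204, Ly6a and Mx1), and 17 of 70 interactions were positive and 1, Samhd1, negative.

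**Figure D4:**
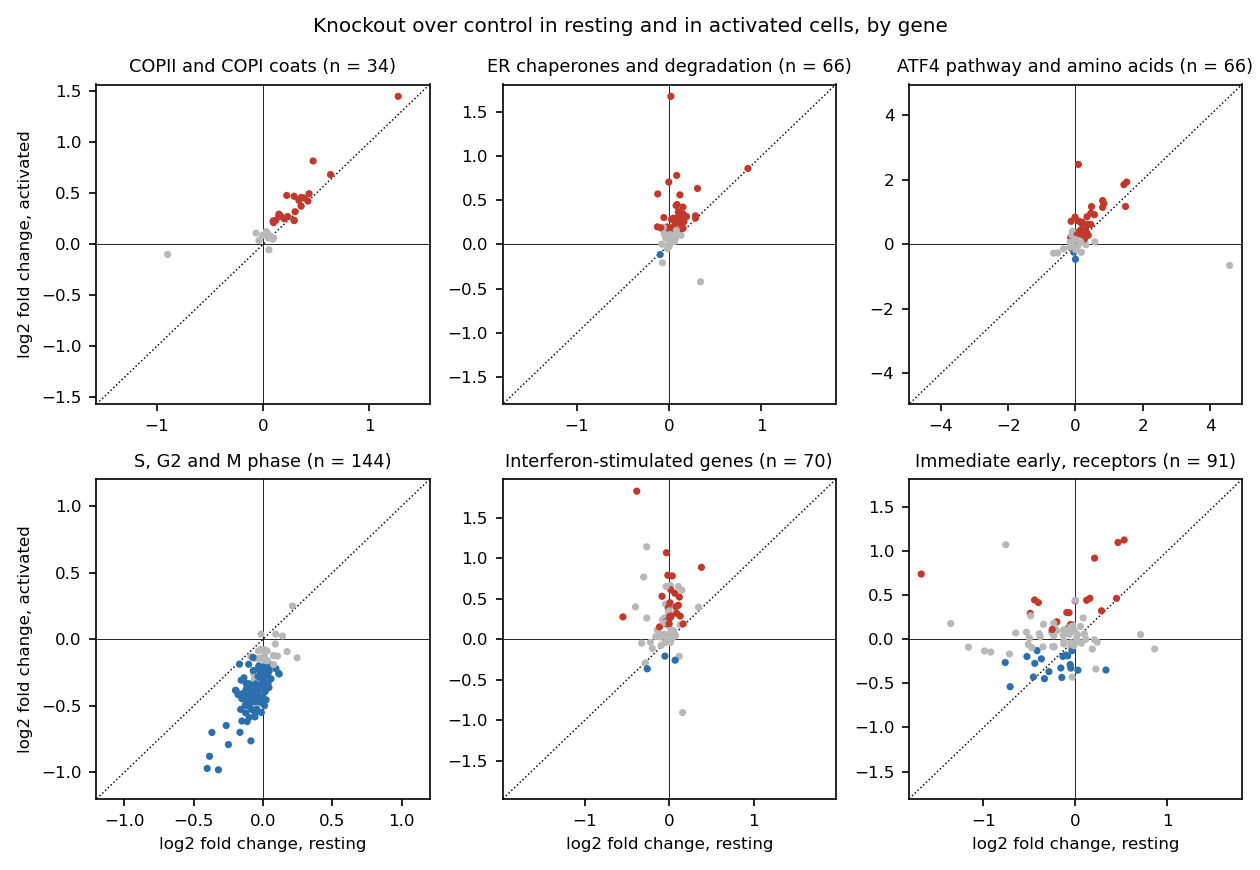
Log2 fold change of knockout over control in resting cells (x axis) and activated cells (y axis) for the members of related lists, one point a gene, coloured as called higher (red), lower (blue) or not called (grey) in activated cells, with a dotted line of equal change. Called coat genes lie near the line or above it, with list medians of 0.27 and 0.23 for COPI, whereas most G2 and M phase genes lie below it, with medians of -0.42 and -0.06.

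Some genes had opposite signs in the 2 states. Of the genes higher in activated cells 30 were lower at rest, and of those lower in activated cells 10 were higher at rest. Egr1, at 58.7 and 66.9 CPM in activated control and 105 and 104 CPM in activated knockout libraries, had 373 and 372 CPM in resting control and 115 and 118 CPM in resting knockout libraries (-1.68 ± 0.046). Havcr2, higher in the knockout than in the control in activated cells, was lower in it at rest (123 and 120 against 91.5 and 86.3 CPM, -0.44 ± 0.048). Cd69 likewise was higher in the activated knockout and lower in the resting knockout (185 and 167 against 132 and 133 CPM at rest, -0.40 ± 0.053). S1pr1 and Tgm2 did the reverse, with 0.53 ± 0.066 and 0.48 ± 0.043 at rest. Immediate early and AP-1 genes as a list had 13 of 36 lower and none higher at rest, with 12 positive interactions and 1 negative, that of Fosl2. Pdcd1 was lower in both states, at 21.6 and 21.9 CPM in resting control and 14.3 and 10.4 CPM in resting knockout libraries (-0.76 ± 0.11), and Ctla4 had -0.45 and -0.34 in activated and resting cells with an interaction of -0.11 ± 0.063 (adjusted p = 0.418).

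Cells with the control guide that were treated with AGN192403 (100 µM) while activated were compared with the same 2 control libraries, so the values are set side by side only. The median of the COPI list was 0.27 in the knockout and 0.48 with the compound, that of the ATF4 list 0.41 and 0.68, and that of G2 and M phase -0.42 and -1.19. Tmed10 had -1.15 in the knockout and 0.14 with the compound, Hspa5 0.44 and 0.60, Ctla4 -0.45 and -1.26, and Ifng -0.24 and -0.65. In the longest genes, by contrast, the bin medians were -0.36 and -0.03. Interferon-stimulated genes had 0.20 and -0.02.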

How the data were processed

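The authors deposited raw counts, one whole number per gene and library. The submitters' processing notes name STAR 2.6.0c as aligner, HTSeq as counter and GRCm38 (mm10) as genome. The methods of the study describe stranded libraries of polyadenylated RNA. The count test was edgeR 4.0.16 (R 4.3.3): filterByExpr over 6 groups, TMM scaling, one mean per group over all 12 libraries (6 residual degrees of freedom, biological coefficient of variation 0.0306) and a quasi-likelihood F test. Standard errors were derived from the F statistic. The 13167 genes tested held 99.9% of counts. The script was tested on simulated data.

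The members and gene lists were chosen with earlier results of these data known, so lists are described by counts and medians, with no set test. Genes named were those of the study's main interest, the 25 largest rises and falls by fold (at least 10 CPM, no overlap), the 12 largest in CPM, and in each list the 6 most changed and 2 least changed members. Irgm2, Tnfrsf4 and other genes named without values to resolve a small count, and the genes of opposite sign, were chosen after their values were seen. Alternatives were other filters, scalings, tests (DESeq2 1.42.0), a replicate block, the 4 libraries alone and each library left out. The length offset (GENCODE M21 exons, piecewise-linear trend) was added after the values were seen. Replicate numbers were not taken to pair libraries. Deviations correlated over 0.1 in 3 of 15 group pairs (range -0.00507 to 0.239), all between groups of controls and none with a knockout group, and the correlation was 0.0227 between activated control and knockout. Guide sequences were not used here.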

Additional observations from a re-analysis of the deposited data

Results flagged for a closer look

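Core genes whose knockout effect differed between activated and resting cells are given here, each with the interaction (activated minus resting log2 fold change) from the same edgeR fit. That of Hspa5 was 0.36 (adjusted p = 5.06e-05), and that of Mki67 -0.49 (adjusted p = 0.000371). Tmed10 itself was reduced further in activated cells, with an interaction of -0.27 (adjusted p = 0.037), from -1.15 against -0.89. Pdcd1 fell less in activated than in resting cells, with an interaction of 0.50 (adjusted p = 0.032), from -0.26 against -0.76. Cxcr6 (0.36, adjusted p = 0.00131) and Tnf (0.36, adjusted p = 0.0069) had positive interactions, although Tnf in activated cells alone was not called. Igf2r, encoding the mannose 6-phosphate receptor, had 437 and 439 against 328 and 323 CPM (-0.43 ± 0.045) and an interaction of -0.25 (adjusted p = 0.0186). With DESeq2 the interactions of Tmed10 (adjusted p = 0.122), Pdcd1 (adjusted p = 0.187) and Tnf (adjusted p = 0.0699) were not called, nor was that of Tmed10 with no filter on low counts (adjusted p = 0.168). Further calls were lost when a library was left out in turn. That of Tmed10 was lost without control or knockout library 1 of the activated cells, either resting control library or resting knockout library 2 (adjusted p 0.0885 to 0.129). That of Pdcd1 was lost without activated control library 1, either activated knockout library, either resting control library or resting knockout library 2 (adjusted p 0.0676 to 0.279). Those of Igf2r (0.0555 to 0.0669) and Tnf (0.0504 to 0.0722) were lost without control library 1 of the activated cells or 1 or 2 libraries of each resting group, and that of Cxcr6 without activated knockout library 1 (adjusted p = 0.0532). No cause was tested.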

How the results depend on the processing

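Of 2583 genes called, 1430 remained with DESeq2 (735 higher, 695 lower), and 1538 to 2064 genes were called when a library was left out (845 to 1025 higher, 693 to 1039 lower, 65 to 74 at least 2-fold higher and 38 to 157 at least 2-fold lower). With DESeq2 and with a stricter filter (5 CPM in 2 libraries), 53 and 48 genes were at least 2-fold higher and 36 and 34 at least 2-fold lower. Among genes under 5000 exon bases 1710 were called, 569 of them lower and 66.7% higher, against 55.2% higher among all genes called. Other filters and scalings gave 2530 to 2651 called genes. Interactions numbered 312 with DESeq2 and 318 to 473 with a library left out, and 380 genes were called at rest with DESeq2. The cause was not tested. The replicate numbers were not taken to pair the libraries, and a replicate block gave 2993 called genes and 834 interactions. Of 228 called genes named with values 188 kept their call in all 13 alternatives, and no call changed sign. Of the genes not called that are named with values, the sign changed for Thy1 (-0.01, -0.02 and -0.00, and -0.06 to 0.08 with a library left out), Prf1 (-0.01 and -0.02, and -0.01 to 0.03 with a library left out), Tmed8 (-0.13 to 0.01 with a library left out) and Tmed1 (-0.48 to 0.04).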

Other observations

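Degradative compartments and organelle genomes have not been described above. Of 63 lysosome, V-ATPase and autophagy genes 16 were higher (8 without control library 1) and 4 lower. The autophagy genes Calcoco1 and Wipi1 had 12.7 and 13 against 19.5 and 22.2 CPM (0.68 ± 0.1) and 4 and 3.69 against 6.93 and 5.6 CPM (0.74 ± 0.18, call lost without knockout library 1 and in 1 of the other fits), and the lysosomal hydrolase Gla fell (18.2 and 18.6 against 13.4 and 14.3 CPM, -0.42 ± 0.11, call lost without knockout library 1 and in 1 of the other fits), as did Igf2r, which delivers hydrolases (-0.43 ± 0.045). Of 9 mitochondrially encoded genes 5 rose, such as mt-Nd2 (1253 and 1335 against 1544 and 1481 CPM, 0.23 ± 0.05, call lost without control library 1 or knockout library 1) and mt-Nd5 (1761 and 1765 against 2012 and 1911 CPM, 0.15 ± 0.041, call lost without knockout library 1 or either control library) (0 without control library 1). Mitochondrial ribosomal proteins had 1 of 76 higher, Mrpl24, and 3 lower, Mrpl18, Mrpl33 and Mrpl34, shares under the background. Nucleolar genes of ribosome assembly had 4 of 56 higher (7.14%) and 6 lower (10.7%), near the background of 10.8% and 8.78%. With DESeq2 0 were higher and 2 lower. Utp20, one of the lower ones, had 264 and 256 against 213 and 209 CPM (-0.30 ± 0.048). Fatty acid oxidation had 3 of 34 higher (Acad11, Acadvl and Hadha; 1 without knockout library 2) and 2 lower (Acadl and Ppargc1b; 0 without control library 1), shares under the background, and DESeq2 called 0 in either direction.

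Genes next to the edited locus on chromosome 12 were also read. Within 1000 kb of Tmed10, 31 other genes were tested, of which 3 were called, or 9.68%, under the 19.6% of all genes. They were Batf (-0.33), Ylpm1 (-0.26) and Ttll5 (-0.23), all lower, and they were chosen after their values were seen.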
